A study of Mus musculus and Homo sapiens with 9 samples.

Results

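The genes described here encode RNase H enzymes, the protein known as RNH1, and DNA topoisomerase I. They are RNASEH1, RNASEH2A, RNASEH2B, RNASEH2C, RNH1 and TOP1, and their mouse counterparts of the same symbol. The genes were chosen by symbol, and every peak that touched a gene body or the 1 kb on either side of it was taken, in human hg38 with GENCODE 44 and in mouse mm10 with GENCODE M21. This gave 6 of 20033 human and 6 of 21938 mouse protein-coding genes, and 23 of 102544 peaks in 9 peak lists, of which 17 were human and 6 mouse.

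R-loops are structures in which an RNA pairs with one DNA strand and leaves the other unpaired. RNASEH1 encodes RNase H1, which cuts the RNA of such a hybrid. RNase H2 does the same and also removes single ribonucleotides from DNA. RNASEH2A is its catalytic subunit, and RNASEH2B and RNASEH2C are its accessory subunits. TOP1 relaxes the supercoils that form behind a moving polymerase and is known to limit R-loops. RNH1 shares part of its name with these enzymes but encodes the ribonuclease inhibitor, which binds secreted ribonucleases of the RNase A family such as angiogenin.

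CUT&Tag, in which an antibody brings a transposase to its target so that the nearby DNA is tagged, was performed with the hybrid-binding antibody S9.6 or with anti-FLAG. Mouse embryonic fibroblasts (MEFs) came from crosses of Mcm8 heterozygous mice of mixed C57BL/6J and ICR background and were immortalised with SV40 lentivirus and selected with puromycin. S9.6 was used in Mcm8 WT MEFs, in Mcm8 KO MEFs, and in MEFs that received a control (shControl) or a Ddx5 knockdown (shDdx5) adenovirus, and a further library of WT MEFs had no primary antibody. HEK293 cells, a human embryonic kidney line, gave a mouse IgG library, an anti-FLAG library after transfection of FLAG-MCM8, an S9.6 library for which the label names no plasmid, and an S9.6 library after transfection of a plasmid labelled RNH1. The study uses that name for RNase H1, not for the RNH1 gene described here. There was 1 library in each group. Expression is not measured by these lists, so neither cell identity nor the loss of Mcm8 or Ddx5 was checked. A list without a peak at a gene says only that no peak was called there, and p-values between groups were not computed.

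The lists held 4314 to 12259 peaks in MEFs and 12497 to 17178 in HEK293 cells. Relative depth, recovered from the deposited peak values, was 5729 to 7001 fragments per Mb in the S9.6 libraries of MEFs but 719.8 in the no-antibody library, and 8314 to 11050 in HEK293 cells. The weakest peak of a list had 3 fragments at its summit in the no-antibody list, 6 or 7 in the other MEF lists and 10 to 14 in HEK293 cells, so weaker signal at a gene is not in these lists. Gaps in the peak numbers of the HEK293 lists show that peaks were removed after calling, so a gene without a peak there may have lost one in that step. Peak names inside the shControl and shDdx5 lists begin with shD1 and shD2, so the names give no control, and each value from these lists rests on its label. All HEK293 peaks but only 8.76% to 60.5% of the peaks of a MEF list had a q of 0.05 or lower, and MEF and HEK293 lists were not compared with each other. Intervals of fragment counts are 95% exact Poisson intervals, and like those of ratios they cover counting error only.

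The sequences under the human promoter peaks are shown first, because the promoters of TOP1, RNASEH1 and RNH1 held the highest-ranked S9.6 peaks at these genes. A promoter peak is one whose summit lies within 1 kb of an annotated transcription start site (TSS) of the gene. Each sequence was read from hg38 in the coding direction of its gene, and capitals mark runs of 4 or more G, which were searched on the coding strand only. For TOP1 the whole S9.6 peak is given (chr20:41028545-41028817, plus strand). For RNASEH1 the part of the S9.6 peak upstream of the 5′ end is given (chr2:3558334-3558547, minus strand). For RNH1 the stretch that spans both promoter summits with 50 bp on each side is given (chr11:506803-506968, minus strand).
TOP1: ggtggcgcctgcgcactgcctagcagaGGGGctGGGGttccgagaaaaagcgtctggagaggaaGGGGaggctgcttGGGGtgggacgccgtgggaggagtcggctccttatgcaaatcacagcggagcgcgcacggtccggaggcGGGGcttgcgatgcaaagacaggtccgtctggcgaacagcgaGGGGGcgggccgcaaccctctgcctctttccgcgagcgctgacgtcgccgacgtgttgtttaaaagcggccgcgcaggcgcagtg
RNASEH1: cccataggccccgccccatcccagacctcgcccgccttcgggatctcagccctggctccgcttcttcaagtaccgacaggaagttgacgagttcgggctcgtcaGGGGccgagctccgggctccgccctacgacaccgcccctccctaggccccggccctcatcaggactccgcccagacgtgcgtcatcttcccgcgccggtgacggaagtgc
RNH1: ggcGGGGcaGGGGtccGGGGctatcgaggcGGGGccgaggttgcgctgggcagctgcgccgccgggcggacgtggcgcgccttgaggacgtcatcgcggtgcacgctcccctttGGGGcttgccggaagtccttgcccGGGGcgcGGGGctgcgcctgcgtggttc

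These stretches differed in which strand carried the G. The TOP1 peak had 111 G and 72 C on the coding strand, with 6 runs of 4 or more G and 0 such runs of C. The RNH1 stretch had 76 G and 51 C, with 7 G runs and 1 C run in 166 bp. The RNASEH1 stretch was the other way round, with 57 G and 91 C, 1 G run and 4 C runs in 214 bp. RNASEH1-DT, a divergent transcript, is annotated there on the opposite strand. The motif GGGG is common in such windows, as 77.7% of 20032 human promoters (250 bp before to 50 bp after the 5′ end) held it on the coding strand, and all 6 human genes of this set did.

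RNASEH1 (ENSG00000171865.10, chromosome 2, 3541430 to 3558333, minus strand) had 1 S9.6 peak and 1 peak in the list labelled RNH1, and 0 in IgG and FLAG-MCM8. The S9.6 peak covered the 5′ end with its summit 193 bp upstream, inside an exon of RNASEH1-DT. It had 26 fragments at the summit (interval 17.0 to 38.1) over a local background of 4.09, a fold of 5.30 and a q of 3.17e-10, which placed it in the top 15.5% of its list. It also covered 129 bp of RNASEH1 coding sequence. Start sites of RNASEH1-DT and of an unnamed gene (ENSG00000286905) lay within 1 kb, so the peak cannot be assigned to RNASEH1 alone.

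The peak in the list labelled RNH1 was at another place in the gene. It lay in an intron (3550918 to 3551253), 7254 bp downstream of the 5′ end and 1229 bp from the nearest start site, and covered 0 bp of coding sequence. It had 17 fragments (9.90 to 27.2) over a background of 3.18, a fold of 4.31 and a rank in the top 59.7% of the list. No promoter peak was called at RNASEH1 after the plasmid labelled RNH1, in a list whose weakest peak had 12 fragments. Of all human protein-coding genes, 12.7% likewise had a promoter peak in S9.6 and none in the list labelled RNH1, and of the set only RNASEH1 did (1 of 6).

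RNH1 (ENSG00000023191.17, chromosome 11, 494512 to 507300, minus strand) had 2 peaks in S9.6, 2 in the list labelled RNH1, and 0 in IgG and FLAG-MCM8. The strongest S9.6 peak (506741 to 507456) had 44 fragments (32.0 to 59.1), a fold of 4.63 and a q of 3.27e-14, in the top 7.10% of its list. Its counterpart after the plasmid labelled RNH1 (506438 to 507113) had 39 fragments (27.7 to 53.3), a fold of 3.51 and a q of 1.04e-08, in the top 21.6%. These peaks shared 373 bp. Their summits were 65 bp apart and lay 97 and 32 bp upstream of the same start site, 382 and 447 bp inside the gene as counted from its outermost 5′ end.

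Scaled to the genome background of each library, the RNH1 promoter summit was 0.815 times as high after the plasmid labelled RNH1 as in S9.6, with an interval of 0.516 to 1.28. The interval includes no difference, a drop to 0.516 and a rise to 1.28. The further peaks of RNH1 did not overlap. In S9.6 a peak with 30 fragments and a fold of 2.88 (498406 to 498805) had its summit 243 bp from an internal start site and covered 214 bp of coding sequence. In the list labelled RNH1 a peak with 32 fragments and a fold of 2.68 (500223 to 500610) lay over an exon and 127 bp of coding sequence, 1540 bp from the nearest start site. The local background was high over this gene, from 8.73 to 11.3 fragments under its 4 peaks, against 1.81 to 5.74 under the other 13 human peaks, so folds at RNH1 were low for their fragment counts.

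TOP1 (ENSG00000198900.7, chromosome 20, 41028822 to 41124487, plus strand) was the only gene of the set with a peak in all 4 HEK293 lists, with 3 IgG, 2 FLAG-MCM8 and 3 S9.6 peaks and 1 peak in the list labelled RNH1. Its S9.6 promoter peak, printed above, had 36 fragments (25.2 to 49.8) over a background of 5.27, a fold of 5.90 and a q of 2.25e-15, in the top 5.90% of the list. The peak after the plasmid labelled RNH1 (41028489 to 41028846) contained that whole peak. It had 47 fragments (34.5 to 62.5), a fold of 7.12 and a q of 1.25e-23, which put it in the top 1.81% of its list, the highest rank of any peak in the set. Both summits were upstream of the 5′ end, by 140 bp in S9.6 and 255 bp after the plasmid.

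Scaled for background, the TOP1 promoter summit after the plasmid labelled RNH1 was 1.20 times that in S9.6, with an interval of 0.761 to 1.91, so neither the rise nor a fall was resolved by these counts. IgG also had a promoter peak at TOP1, but downstream of the start rather than upstream. It covered 41028904 to 41029302 in the 5′ UTR and 33 bp of coding sequence, with 21 fragments (13.0 to 32.1) and a fold of 3.95. It began 86 bp beyond the end of the S9.6 peak and 57 bp beyond that of the labelled RNH1 peak. Its GC content of 74.7% was higher than that of 99.9% of IgG peaks, whose median was 45.7%. Leaving out S9.6 peaks that overlap IgG peaks therefore kept the TOP1 promoter peak, although the control had its own peak beside it.

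Within the TOP1 gene body the antibody lists and the control coincided at some places. An intronic S9.6 peak (41058679 to 41058978) with 19 fragments and a fold of 4.94 lay wholly inside an IgG peak (41058601 to 41059047) with 19 fragments and a fold of 4.25. The scaled ratio of S9.6 to IgG there was 1.47, with an interval of 0.736 to 2.93. Further downstream a FLAG-MCM8 peak (41093102 to 41093338, 14 fragments, fold 5.27) shared 60 bp with an IgG peak (41093279 to 41093742, 19 fragments, fold 3.85), and the ratio was 1.36 with an interval of 0.630 to 2.86. Their summits were 381 bp apart, so this ratio compares counts at different positions, while the summits of the intronic pair were 48 bp apart. The remaining S9.6 peak (41036266 to 41036513, fold 4.45) and FLAG-MCM8 peak (41050494 to 41050764, fold 3.91) were intronic and overlapped no other list.

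The 101 bp around the summit of the intronic S9.6 peak that coincided with IgG (chr20:41058666-41058766, hg38, plus strand) are shown for contrast with the promoter, with capitals as before.
TOP1 intron: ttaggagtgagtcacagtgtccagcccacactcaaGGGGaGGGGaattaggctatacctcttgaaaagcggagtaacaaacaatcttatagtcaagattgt

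This stretch had a GC content of 44.6%, and the whole peak 39.7%, and 3.0% of S9.6 peaks had less, at a list median of 59.1%. The promoter peaks of the set stood at the other end of the same lists. GC content in S9.6 was 67.0% for TOP1, 69.2% for RNASEH1 and 73.2% for the 5′ peak of RNH1, and these values exceeded 82.2%, 87.8% and 95.3% of S9.6 peaks. The S9.6 peak at the internal start site of RNH1 had 67.5%, above 83.7% of the list. After the plasmid labelled RNH1 the promoter peaks had 66.5% at TOP1 and 70.1% at RNH1, against a list median of 59.0%. These lists also hold peaks away from promoters. Among human promoters, in the window of 250 bp before to 50 bp after the 5′ end, the median GC content was 60.3%. In that window TOP1, RNASEH1 and RNH1 exceeded 63.2%, 79.4% and 90.1% of promoters.

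**Figure D1:**
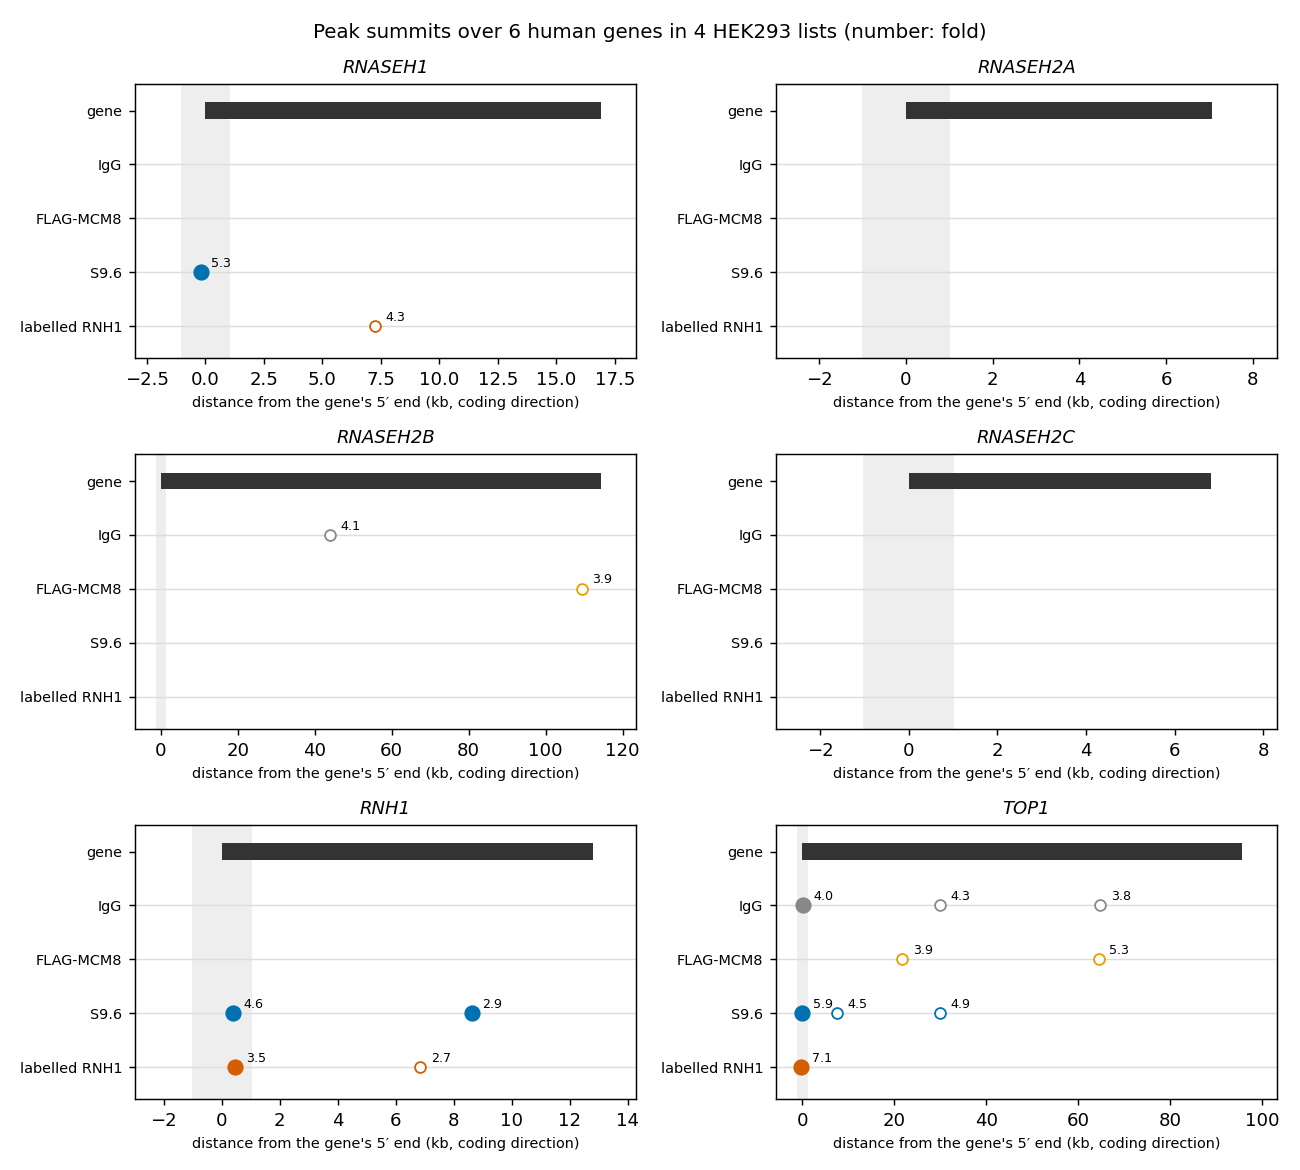
Position of each peak summit over the 6 human genes, with distance from the gene's 5′ end in kb on the horizontal axis, 1 row for each HEK293 list, the gene as a black bar and the 1 kb on each side of the 5′ end in grey. Filled points are promoter peaks, open points are not, and the number is the fold; RNASEH2A and RNASEH2C have no point, and only TOP1 has points in all 4 lists.

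The RNase H2 subunits had few peaks in HEK293 cells. RNASEH2A (chromosome 19, 12806584 to 12813640, plus strand) had 0 peaks in all 4 lists, and the nearest S9.6 peak was 4.69 kb from the gene. RNASEH2C (chromosome 11, 65714005 to 65720818, minus strand) also had 0. Peaks at the 5′ end of KAT5, a histone acetyltransferase gene that overlaps RNASEH2C on the other strand, ended short of the window, 1.12 kb from RNASEH2C in the list labelled RNH1, 1.28 kb in S9.6 and 1.53 kb in FLAG-MCM8, with folds of 4.83, 4.35 and 4.25. IgG had no peak there, its nearest being 9.10 kb away.

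RNASEH2B (ENSG00000136104.21, chromosome 13, 50909747 to 51024120, plus strand), the longest of the 6 human genes at 114374 bp, had 1 IgG peak and 1 FLAG-MCM8 peak and 0 in both S9.6 lists. The IgG peak (50953656 to 50954024) had 17 fragments, a fold of 4.15 and 120 bp of coding sequence. The FLAG-MCM8 peak (51019006 to 51019223) had 10 fragments, the lowest number that any peak of that list had, and a fold of 3.91, in the top 94.2% of the list. It lay in an intron that is also an intron of GUCY1B2. Neither was near a start site of RNASEH2B, the nearest being 5642 and 71051 bp away.

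Counted over the set, 2 of 6 human genes had a peak in IgG, where 26.5% of all protein-coding genes did, and 2 in FLAG-MCM8 (28.4%). S9.6 had 3 (43.6%), as did the list labelled RNH1 (37.0%). Promoter peaks were called at 1 of 6 genes in IgG (5.6% of all genes) and 0 in FLAG-MCM8 (12.0%). S9.6 had 3 (30.1%) and the list labelled RNH1 had 2 (24.6%). A single gene is a large share of 6, and these counts are given beside the background as a description. RNASEH1 and RNH1 had a promoter peak in S9.6 but none in IgG (2 of 6, against 27.4% of all genes). No gene of the set had a FLAG-MCM8 peak without an IgG peak (0 of 6, against 15.6%), since TOP1 and RNASEH2B had both. This counts genes and not places. The FLAG-MCM8 and IgG peaks of RNASEH2B did not overlap, and at TOP1 1 FLAG-MCM8 peak overlapped an IgG peak and the other did not.

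The pattern of promoter peaks across the 4 human lists was common for most of these genes. RNASEH1, with S9.6 alone, shared it with 2061 other protein-coding genes (10.3%), among them ANG, which encodes angiogenin, and THOC5 of the THO complex. RNH1, with S9.6 and the list labelled RNH1, shared it with 2136 genes (10.7%), among them the helicase genes AQR and DHX9. TOP1, with IgG, S9.6 and the list labelled RNH1 but not FLAG-MCM8, shared it with 195 genes (0.973%), none of them in a list of 26 other genes described further on.

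In MEFs 4 of the 6 genes had a peak in any list, and every one of the 6 peaks stood alone, with 0 overlapping a peak of another list. The matching shares of all mouse genes and of all MEF peaks were not computed. These counts are therefore a description and not a trait of these genes. The WT and the no-antibody lists had 0 peaks at these genes. KO had 2, shControl 2 and shDdx5 2. Only 2 of the 6 had a q of 0.05 or lower, and the numbers of fragments at the summit were 8 to 15. Rnaseh1 and Top1 had no peak in any MEF list. Rnaseh1 (chromosome 12, 28649602 to 28659589) had its nearest peak 3.79 kb away, in the no-antibody list, and Top1 (chromosome 2, 160645888 to 160722764) 2.59 kb away, in WT, with a fold of 4.82.

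In the KO list Rnaseh2b and Rnh1 had peaks that the WT list did not. The Rnaseh2b peak (mm10, 62315020 to 62315334 on chromosome 14) was intronic, 22669 bp from the 5′ end, and had 10 fragments (4.80 to 18.4) over a background of 1.45, a fold of 4.48 and a q of 0.00657, in the top 17.7% of the list. The Rnh1 peak (141164564 to 141164936 on chromosome 7) also had 10 fragments, but over a background of 2.99, so its fold was 2.76 and its q 0.355, in the top 88.3%. Its summit was intronic and the peak covered 111 bp of coding sequence. A peak in KO but not WT was found at 14.3% of all mouse protein-coding genes, and at 2 of 6 here.

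The 101 bp around the Rnaseh2b summit (chr14:62315208-62315308, mm10, plus strand) are printed because this was the highest-ranked mouse peak of the set. It had no run of 4 or more G, and so no capitals.
Rnaseh2b intron: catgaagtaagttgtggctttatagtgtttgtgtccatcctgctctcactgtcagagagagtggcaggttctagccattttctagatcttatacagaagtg

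The GC content of this stretch was 42.6%, and that of the whole peak 40.3%, and 7.29% of KO peaks had less, at a list median of 51.7%. The shDdx5 list had a separate peak in the gene (62366527 to 62366925), 74078 bp from the 5′ end, with 8 fragments (3.45 to 15.8), a fold of 3.37 and a q of 0.110. The peak was the weaker by rank, in the top 70.7% of its list.

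**Figure D2:**
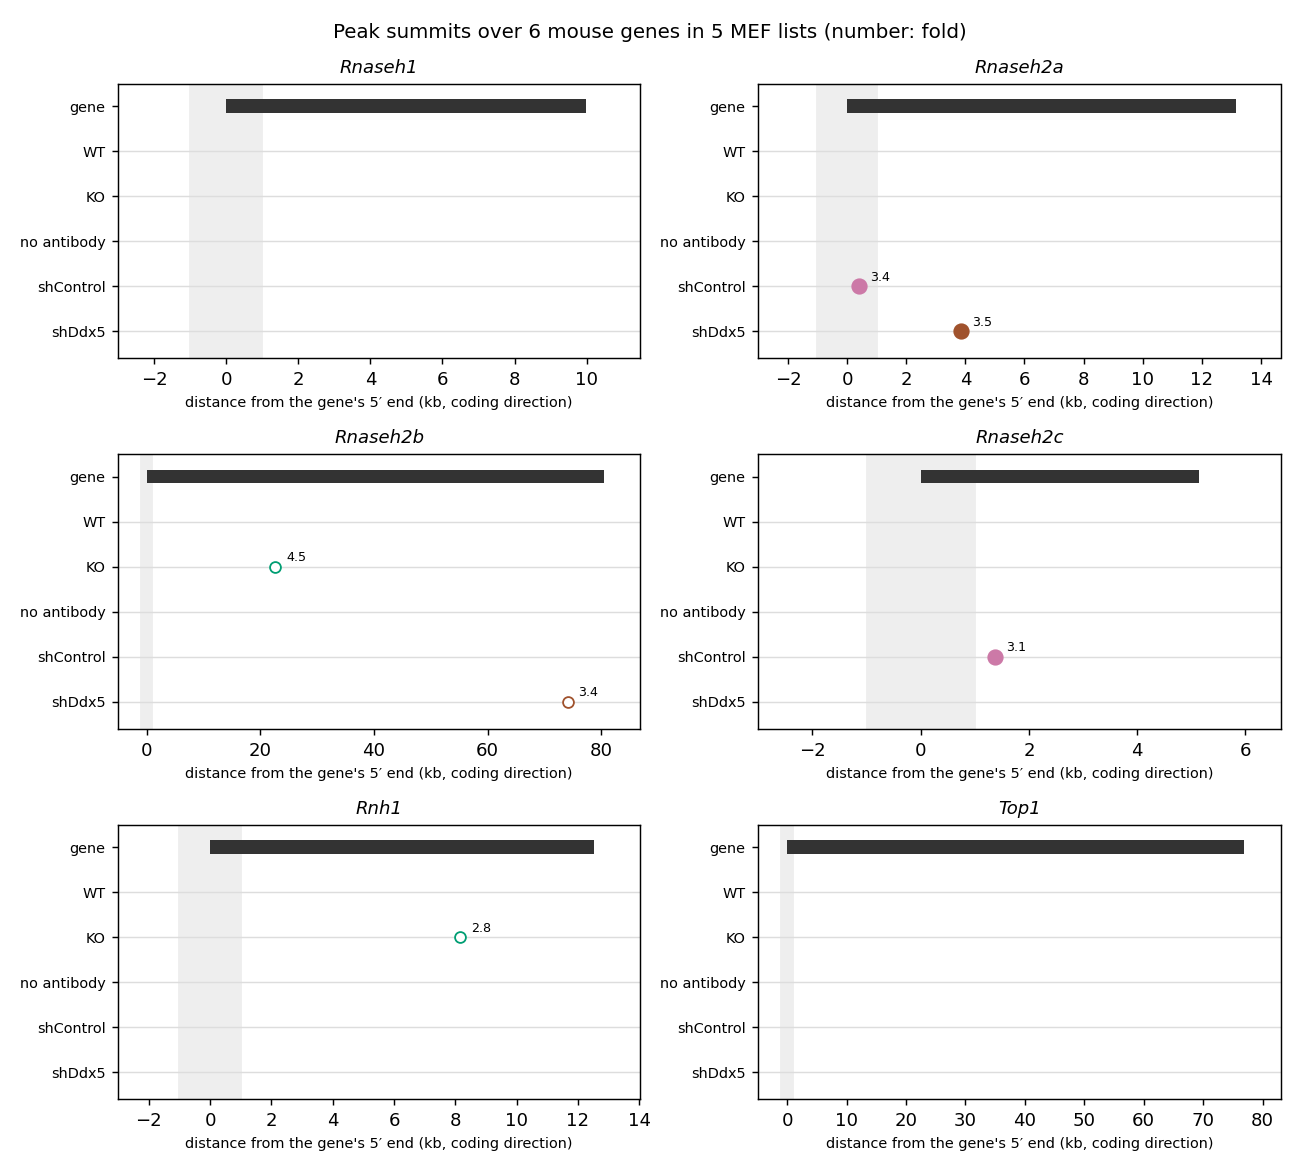
Position of each peak summit over the 6 mouse genes, with distance from the gene's 5′ end in kb on the horizontal axis, 1 row for each MEF list, the gene as a black bar and the 1 kb on each side of the 5′ end in grey. Filled points are promoter peaks, open points are not, and the number is the fold; the WT and no-antibody rows are empty, and no gene has points of 2 lists at the same place.

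Rnaseh2a (mm10, chromosome 8, 84956610 to 84969767, minus strand) had a peak in shControl and another in shDdx5, and these were separate. In shControl the peak (84969168 to 84969603) was at the 5′ end, with its summit in UTR sequence 69 bp from a start site, 12 fragments (6.20 to 21.0), a fold of 3.36 and a q of 0.0737. Prdx2, the peroxiredoxin 2 gene, starts within 1 kb on the opposite strand, and a predicted gene (Gm49661) overlaps. In shDdx5 the peak (84965613 to 84966172) was 3846 bp inside the gene, 40 bp from an internal start site, with 15 fragments (8.40 to 24.7), a fold of 3.55 and a q of 0.00548. It covered 157 bp of coding sequence. The promoter pattern of Rnaseh2a, shControl and shDdx5, was that of 490 other genes (2.23%).

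Rnaseh2c (chromosome 19, 5601873 to 5607019, plus strand) had a shControl peak (5603192 to 5603414) with 11 fragments (5.49 to 19.7), a fold of 3.09 and a q of 0.157, 841 bp from a start site and over UTR sequence of both Rnaseh2c and Kat5, which overlap on opposite strands. A start site of Kat5 also lay within 1 kb of the shControl summit, so that peak cannot be assigned to Rnaseh2c alone. The shDdx5 list had its nearest peak 2.38 kb before the 5′ end of Rnaseh2c, with a fold of 4.25. Kat5 is the counterpart of the human gene whose 5′ end carried the peaks beside RNASEH2C.

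Over the set, 0 of 6 mouse genes had a peak in WT, where 19.2% of all protein-coding genes did, 2 in KO (26.1%), 0 in the no-antibody list (7.99%), 2 in shControl (27.8%) and 2 in shDdx5 (32.7%). Promoter peaks were called at 0 genes in WT (11.3%), 0 in KO (16.0%), 0 without antibody (1.23%), 2 in shControl (14.7%) and 1 in shDdx5 (23.1%). A peak in shDdx5 and not in shControl was found at 1 of 6, Rnaseh2b, against 15.1% of all genes. These counts too are a description, since the 6 genes are few and the peaks weak.

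**Figure D3:**
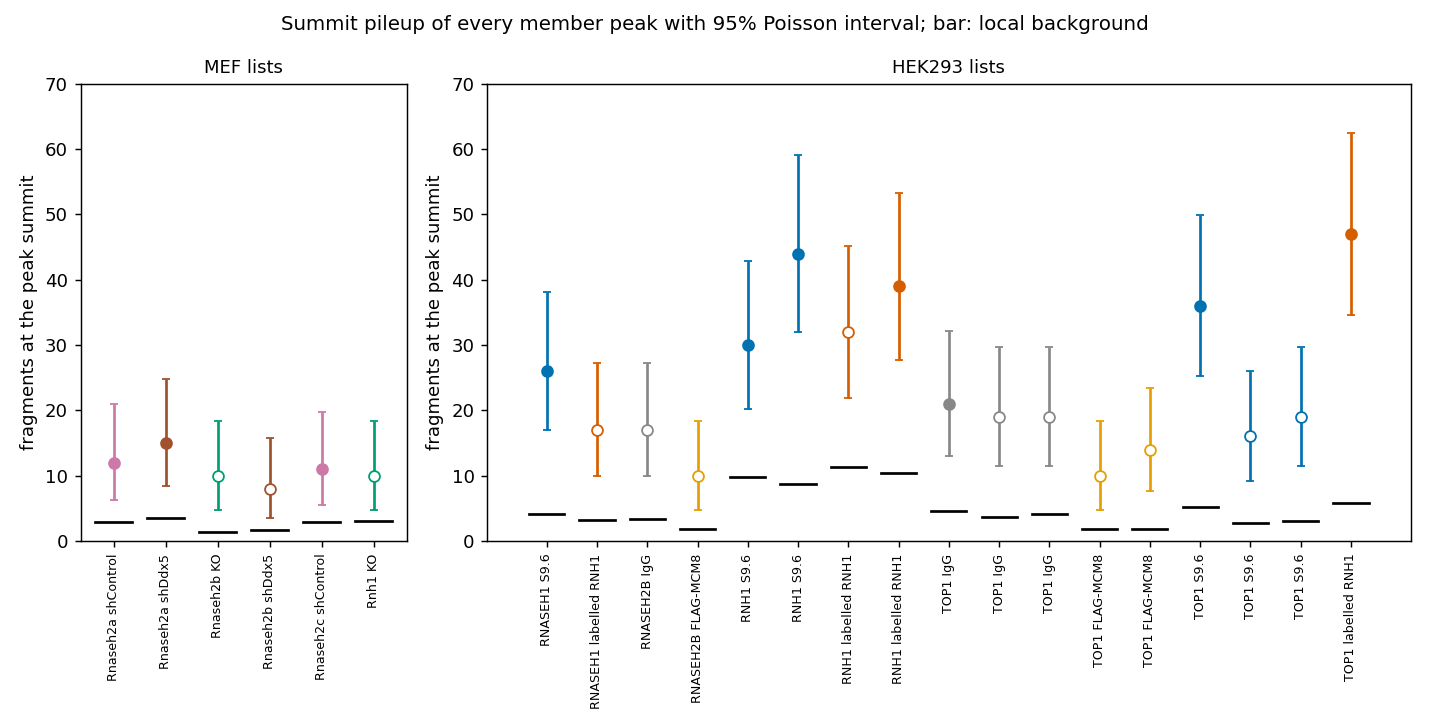
Fragments at the summit of each of the 23 peaks (vertical axis, with its 95% exact Poisson interval) for the MEF lists on the left and the HEK293 lists on the right, named by gene and list. Filled points are promoter peaks and black bars the local background; the peaks at the 5′ promoters of RNH1 and TOP1 (S9.6 and labelled RNH1) are the 4 highest at 36 to 47, and every MEF peak is at 15 or below.

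Beside the 6 genes, 26 other genes were examined by the same rule, namely R-loop helicases, topoisomerases and their partners, RNA-processing factors, and SAMHD1 and ANG, which act on nucleotides or RNA. This list was chosen with earlier results of these data known, so its shares are a description. Of these genes, 11 had a promoter peak in S9.6 (42.3%, against 30.1% of all protein-coding genes). The list labelled RNH1 had 15 (57.7%, against 24.6%), FLAG-MCM8 9 (34.6%, against 12.0%) and IgG 2 (7.69%, against 5.6%). In MEFs 4 had one in WT (15.4%, against 11.3% of all genes), 8 in KO (30.8%, against 16.0%) and 7 in shControl (26.9%, against 14.7%). The shDdx5 list had 11 (42.3%, against 23.1%) and the no-antibody list 0 (against 1.23%). DDX5 and RTEL1 had promoter peaks in all 4 HEK293 lists, IgG included, and Rmi1 and Tdrd3 in all 4 S9.6 lists of MEFs.

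**Figure D4:**
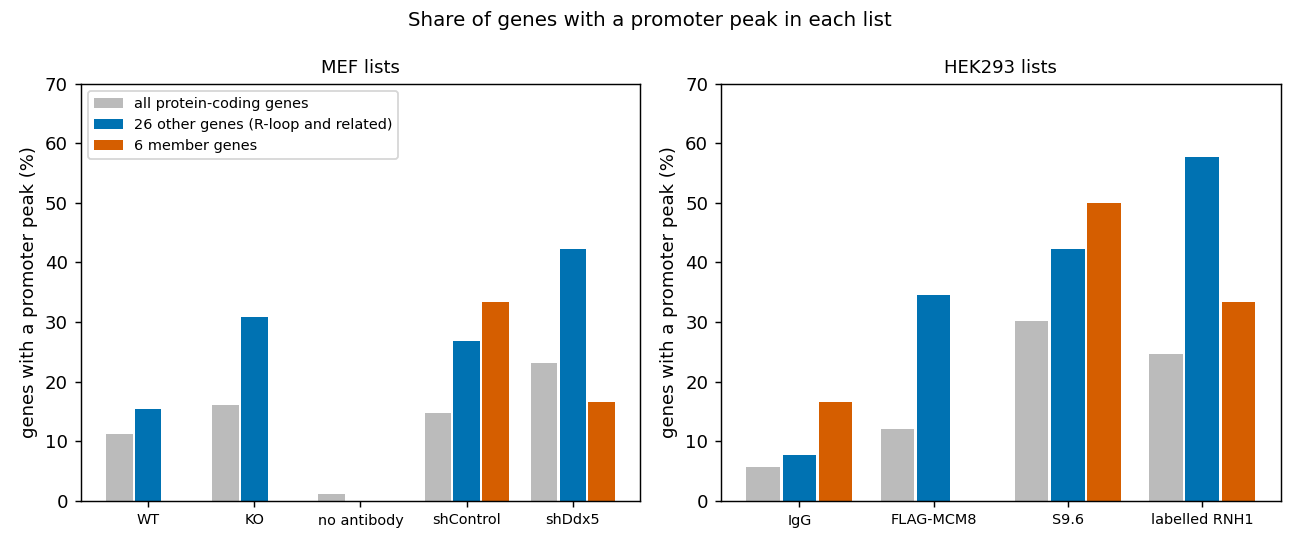
Share of genes with a promoter peak in each list (vertical axis, percent) for all protein-coding genes (grey), the 26 other genes (blue) and the 6 genes of the set (orange). The set reaches 3 of 6 in S9.6 and is at 0 in FLAG-MCM8, WT, KO and the no-antibody list.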

How the data were processed

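CUT&Tag libraries of 5 MEF and 4 HEK293 samples, 1 per group, were analysed from their peak lists. The members and gene lists were chosen with earlier results of these data known. The authors trimmed the reads, aligned them to mm10 or hg38 with Bowtie2 and called peaks in each library with MACS2 (version 2.1.2 in the submitters' processing notes, another version in the methods). The calling threshold and the handling of duplicates are not given in the sources used here. For HEK293 peaks the methods name a fold above 2 and a p below 0.05 as criteria. Peak numbers in the HEK293 lists skipped 1465 to 2090 peaks, which shows a removal step after calling. Folds reached down to 1.79 (S9.6) and 1.72 (labelled RNH1), so the criterion on fold was not applied to those deposited lists. The MEF lists skipped 0 numbers. Peak names inside the shControl list begin with shD1 and inside the shDdx5 list with shD2, and the groups follow the labels. Per peak, the deposited columns hold the fold (a ratio) at the summit over local background, the −log10 of p and of q, and a score that was not used.

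Peaks on autosomes, X and Y were assigned to genes of GENCODE M21 (mouse) or 44 (human) within 1 kb of the gene body, and to promoters where the summit lay within 1 kb of a TSS of the gene. Peaks sharing at least 1 bp were counted as overlapping. The whole-number fragment count at each summit and its local background were solved from the deposited fold and −log10 p, which was tested on simulated data. The lowest background of a list is its genome background, and dividing it by the shortest peak length gives the relative depth. Ratios of summits were scaled by genome background, with 95% exact binomial intervals. PCR duplicates, if kept, are not independent molecules, so intervals cover counting error only. Sequences were read from GRCm38.p6, the sequence of mm10, and from hg38. All peaks lay inside the chromosome lengths of these builds. GC content was compared with all peaks of the same list.

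The alternatives were other gene windows (no flank, or 5 kb) and promoter definitions (the gene's own 5′ end only, 3 kb, or the peak midpoint), a q of 0.05 or of 1e-05, a fold of at least 4, equal numbers of peaks per cell type, peaks under a control peak left out, and other rules for overlap (50% of both peaks, or within 1 kb). The genes with values are the 6 members, and others are named where they share a peak, a window or a promoter pattern with a member or, in the list of 26, had promoter peaks in the most lists. The analysis used Python (3.11.15), scipy (1.17.1) and pandas (2.3.3), with matplotlib (3.10.9) for plots and numpy (2.4.6).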

Additional observations from a re-analysis of the deposited data

How the results depend on the processing

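Of 151 alternative values for 23 counts, 115 stayed within 1.5 times the reported count and 36 did not. At a q of 0.05 or lower, genes with a peak numbered 1 in KO, 0 in shControl and 1 in shDdx5, and shControl promoter genes 0. At 1e-05, KO, shControl and shDdx5 were at 0, their promoter counts in shControl and shDdx5 at 0, IgG and FLAG-MCM8 at 1 gene each, and FLAG-MCM8 peaks shared with IgG at 0. At a fold of at least 4, genes with a peak numbered 1 in KO, 0 in shControl, 0 in shDdx5 and 1 in FLAG-MCM8. Promoter genes were then 0 in shControl, shDdx5 and IgG and 1 in the list labelled RNH1, where TOP1 stayed. FLAG-MCM8 peaks shared with IgG fell to 0 and S9.6 peaks shared with the list labelled RNH1 to 1. With equal numbers of peaks, KO, shControl, shDdx5 and FLAG-MCM8 had 1 gene each, and shControl 1 promoter gene.

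With 5 kb on each side of the gene, 1 gene had a peak in WT, 1 in the no-antibody list, 4 in FLAG-MCM8 and 5 in S9.6, so 0 peaks in WT at these genes depends on the window. With the gene's own 5′ end as the only start, promoter genes were 1 in shControl and 0 in shDdx5, and with 3 kb they were 2 in shDdx5 and 1 in FLAG-MCM8. When 50% of both peaks had to be shared, no FLAG-MCM8 peak was shared with IgG (0). Promoter counts of 3 in S9.6 stayed within 1.5 times under every alternative run. No paired analysis was possible because each group had 1 library, and leaving out a replicate does not apply. Fragment counts of 8 to 47 limit what any of these peaks can show.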

Other observations

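The GC skew of the first 500 bp of each gene, (G − C)/(G + C) on the coding strand, is often examined at R-loop promoters and was read from the genome alone. It was positive at 65.0% of 20032 human and 66.8% of 21929 mouse genes. TOP1 and Top1 were among the genes with the least, at -0.134 and -0.143, and 7.76% of human and 5.97% of mouse genes had less. RNASEH2A (0.160) and RNASEH1 (0.112) were higher in human, above 83.1% and 70.8% of genes, and RNH1 was near the middle at 0.0518. The 3 human genes with an S9.6 promoter peak had skews from -0.134 to 0.112. RNASEH2A, with the highest skew of the 6 human genes, had no peak. This window starts at the 5′ end, but the TOP1 S9.6 peak ended before it and the RNASEH1 summit lay 193 bp upstream. The promoter stretches printed above had the opposite sign at TOP1, with 111 G and 72 C, and at RNASEH1, with 57 G and 91 C. At RNH1 the sign was the same, with 76 G and 51 C. A relation of skew to these peaks was not tested.

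Peaks per Mb of gene plus 1 kb on each side were counted for the human genes with peaks. In S9.6 they were 135.2 at RNH1, 52.9 at RNASEH1 and 30.7 at TOP1, against 8.17 over all protein-coding genes, and in the list labelled RNH1 135.2, 52.9 and 10.2, against 6.74. In IgG they were 30.7 at TOP1 and 8.59 at RNASEH2B, against 6.21, and in FLAG-MCM8 20.5 and 8.59, against 5.62. Each of these gene values rests on 1 to 3 peaks. Genes without a peak were left out of them, while the all-gene values include such genes. At RNASEH1, 1 peak in a window of 18.9 kb was enough for 52.9. RNASEH2A, RNASEH2B (window 116.4 kb) and RNASEH2C had 0 with S9.6, whether or not the plasmid labelled RNH1 was given. IgG and FLAG-MCM8 had 0 at RNASEH1, RNASEH2A, RNASEH2C and RNH1. A higher density over the set than over all genes was not tested.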
